A study of Mus musculus with 9 samples.

Results

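The genes described here encode the enzymes that attach ubiquitin to proteins, the proteases that remove it and the proteasome that degrades the tagged proteins. They were taken by symbol: every gene of the count table named Usp, Ube2, Ube3, Cul, Fbxl, Fbxo or Fbxw (leaving out Usp2), or with the prefix Psma, Psmb, Psmc, Psmd, Psme, Kctd or Cand and a digit. That rule gave 194 of the 14052 genes in the table. No measured value entered the rule, and some genes it takes fall outside the class of their prefix. Psmc3ip is a meiotic recombination factor and not a proteasome subunit, and Ube2cbp is a Ube2c-binding protein and not an E2 enzyme.

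RNA was sequenced from renal cortex of mice about 1 year old on a normal diet. The tumour group holds 5 tumour areas (L4, R2, R3, R4 and R5) of the genotype Vhl F/F;Pbrm1 F/F;Ksp-Cre, on a mixed background of C57BL/6, BALB/c and 129. The normal group holds 4 areas (L1, L2, R1 and R2) of wild-type C57BL/6 kidney. Ksp is the promoter of the tubule cadherin Cdh16, so the deletion is driven in tubule epithelium, while the stroma, vessels and blood cells of an area keep their alleles. The sample descriptions hold a single number per group, which leaves it possible that every area of a group came from 1 animal. The p-values then measure the spread between areas, and strain and genotype cannot be told apart.

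Ubiquitin is activated by an E1 enzyme, passed to an E2 enzyme (the Ube2 family) and joined to a substrate by an E3 ligase. The largest class of E3 ligases is built on cullins, which hold exchangeable substrate receptors: F-box proteins on Cul1, Kctd and Klhl proteins on Cul3, and Vhl on Cul2. The proteasome has a core of Psma and Psmb subunits, a regulatory cap of Psmc ATPases and Psmd subunits, and alternative activators of the Psme family. The kidney disease gene Vhl is itself such a receptor, and the hypoxia-inducible factor subunits are its best known substrates.

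Levels are edgeR CPM, reads as a share of a library total scaled by TMM, a factor per library that centres most genes. Counted reads ran from 5143527 to 8250261 per library, and 3 counts, the limit that a count of 0 allows, came to 0.409 to 0.649 CPM. Intervals of this kind cover counting error only. Summed leukocyte markers came to 1424 to 3330 CPM in the tumour areas, highest in L4 and R5, and to 122 to 144 CPM in the normal areas, with 8 of 9 tested markers higher and Ptprc, their defining gene, at 0 in every library. Summed markers of dividing cells came to 75.0 to 114 CPM in tumour and 6.40 to 7.999 CPM in normal areas, with 6 of 6 tested markers higher. Proximal tubule markers, the check of the tissue label, came to 8069 to 15772 CPM in tumour and 29934 to 32073 CPM in normal areas, with 8 of 8 lower. Distal nephron markers came to 1515 to 6812 CPM in tumour, lowest in R2, and 10418 to 10682 CPM in normal areas, with 5 of 6 lower. Umod, the largest part of that sum, did not pass the edgeR test (adjusted p = 0.0584). It had 5300 CPM in tumour R3, within the 5057 to 5985 CPM of the normal areas. Every tumour area thus held more signal of leukocytes and dividing cells and less of tubule cells than any normal area. Urothelial markers reached 1237 CPM in tumour L4 and 243 CPM in R5, while R2, R3 and R4 had 43.8 to 110.3 CPM and normal areas at most 7.09 CPM. Fat markers stood at 289 CPM in L4 and 66.6 CPM in R5, while R2, R3 and R4 had 5.53 to 14.5 CPM and normal areas 9.51 to 29.2 CPM. In such bulk samples, fewer cells of a type and less RNA per cell cannot be told apart.

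Of the 194 members, 99 had enough reads to be tested, 42 had too few and 53 (27.3%) had no count in any library, close to the 28.4% of all genes. No silence can be read from such a 0, because the 53 include subunits that every proteasome needs. They are Psma6, Psmb3 and Psmb6 of the core and Psmc5, Psmd1, Psmd2, Psmd4 and Psmd11 of the cap. Also at 0 were the immunoproteasome subunits Psmb8 and Psmb9, the activators Psme1 and Psme2, Cul2, Cul7, Cul9, Fbxw7, Fbxl21, Kctd15, Ube2m, Ube2t and Uspl1. Others had a handful of reads: Cul1 had 5 over all libraries, Usp7 had 3 and Psmc4 had 1. Fbxl5 had 53. The results below therefore describe the measured members only.

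Among the 99 tested members, 31 were higher and 37 lower in tumour areas, and 31 did not pass (edgeR quasi-likelihood test, Benjamini-Hochberg adjusted p under 0.05 over all 7020 tested genes). The share called was 68.7%, against 74.6% of all tested genes. The higher share was 31.3% against a background of 39.3%, and the lower share was 37.4% against 35.3%. The same background applies to the family and list counts below. The groups did not overlap for 61 members (61.6%), against 67.8% of all tested genes. Changes of at least 2-fold were 5 higher, where 17.3% of all genes were, and 9 lower, where 12.6% were. The median log2 fold change, tumour over normal, was -0.09 for the members and 0.06 for all tested genes.

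Direction went with scaling and with transcript length. With library size as the only scaling, the median of all genes was 0.35 in log2 fold change in place of 0.06, and 49 members were higher and 17 lower. Over all genes, the median log2 fold change was 0.43 in the shortest and -0.46 in the longest of 5 equal classes by longest annotated coding transcript. Values per library were taken against the mean of the 4 normal libraries. Each tumour library showed the trend, at 0.42 to 0.44 for the shortest and -0.47 to -0.44 for the longest class. Normal libraries lay near 0, where that reference centres them by construction. Of the 28 members in the shortest class, 14 were higher and 3 lower, and of the 18 in the longest class 1 was higher and 12 lower. Over all genes, 59.9% were higher and 14.7% lower in the shortest class, and 18.1% were higher and 61.0% lower in the longest, so the members lay near the shares of their classes. The rank correlation with length was -0.34 over 7000 genes and -0.51 over the 99 members, as a description over genes that share the same libraries. With the length trend removed within each library, an alternative added after the data were seen, 28 members were higher and 37 lower. The part of RNA quality or library preparation in this trend was not tested.

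**Figure D1:**
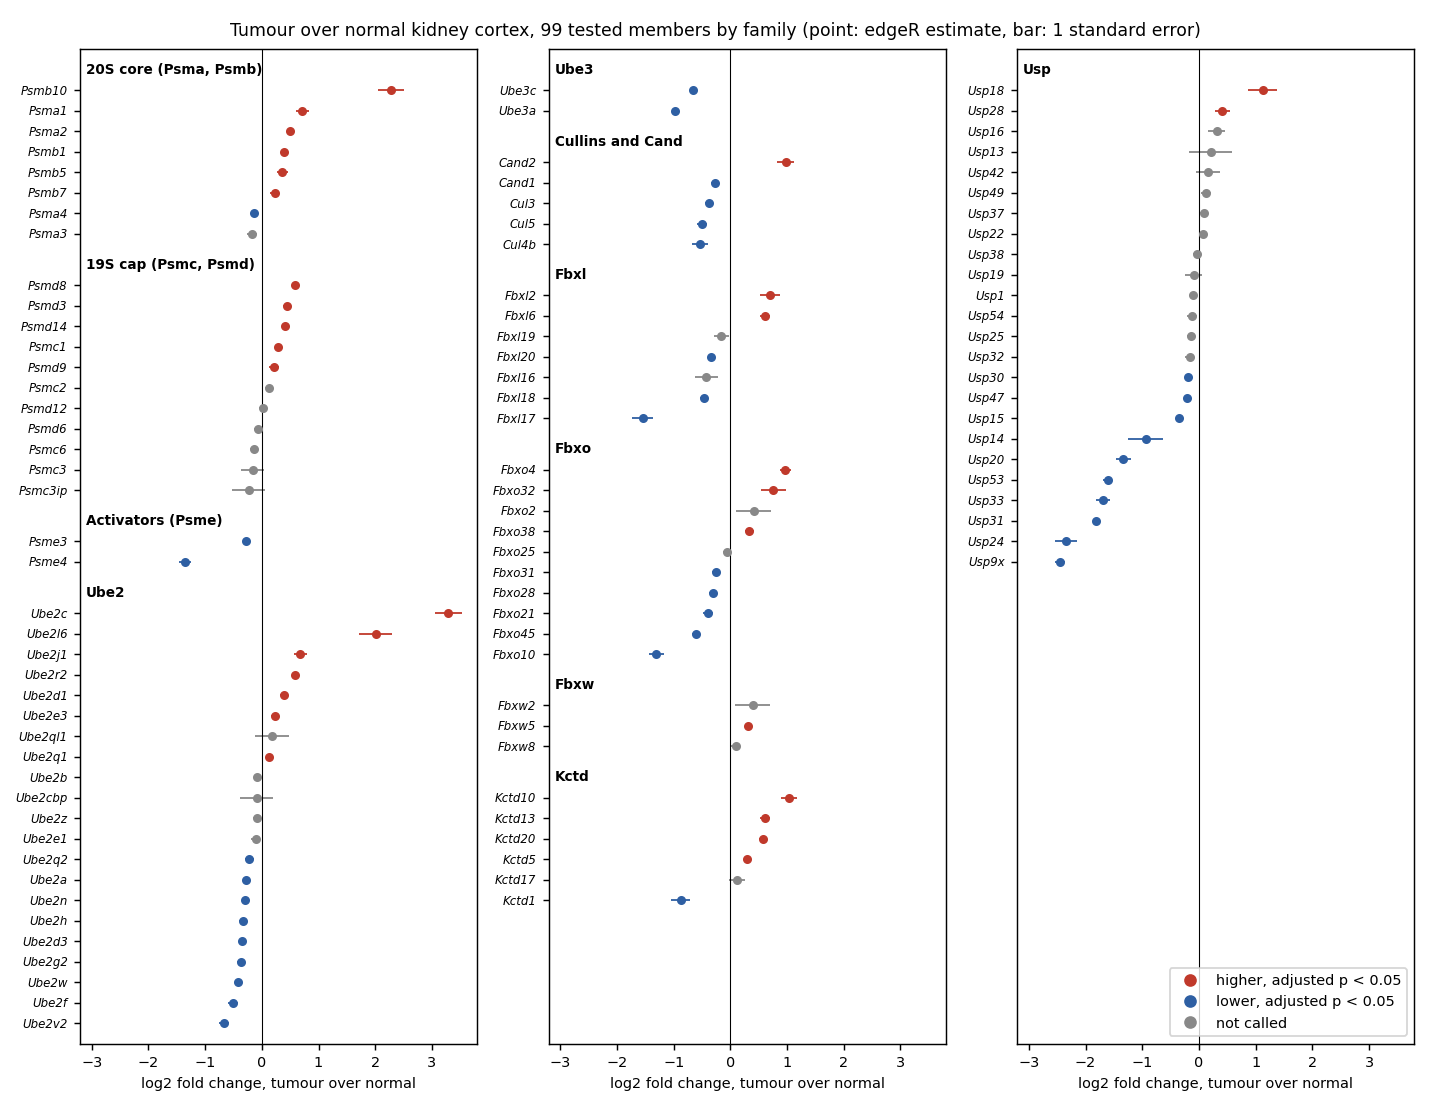
Log2 fold change, tumour over normal, of the 99 tested members by family, with 1 standard error as the bar and red, blue and grey for higher, lower and not called. Core and cap subunits lie mostly to the right of 0 and the largest falls are in the Usp family, and with the length trend removed 4 of the 18 tested core and cap subunits were higher and 7 lower.

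**Figure D2:**
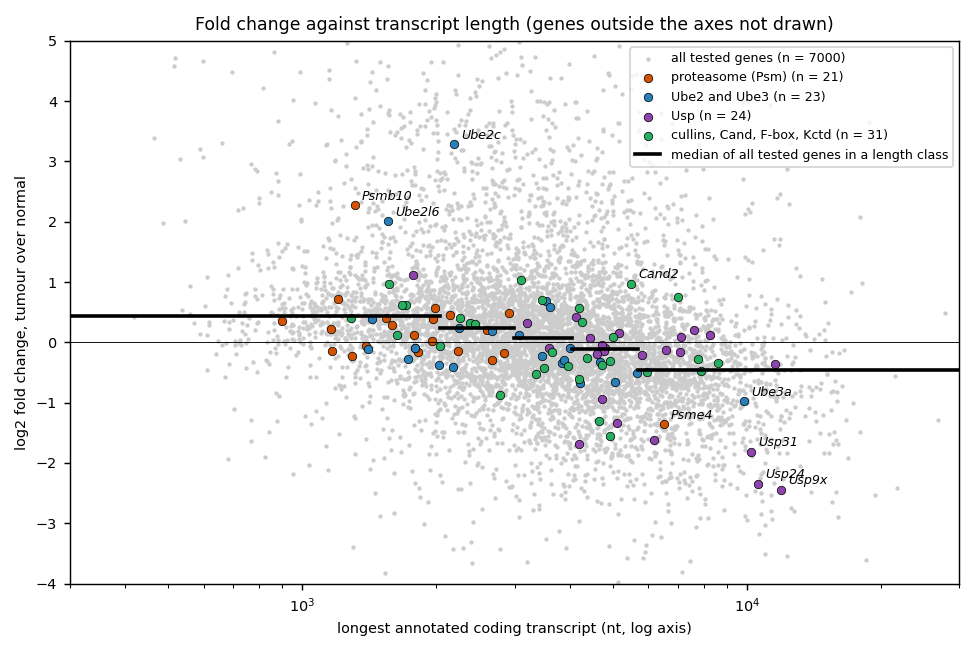
Log2 fold change, tumour over normal, against the longest annotated coding transcript in nucleotides on a log axis, with all tested genes in grey, members coloured by family and the median of each of 5 length classes as a black line. The medians step down over the classes, 0.43 in the shortest and -0.46 in the longest, and the long Usp9x, Usp24 and Usp31 lie under their class median while Ube2c, Psmb10 and Ube2l6 lie above theirs.

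In the core and cap of the proteasome, more subunits were higher than lower in tumour areas, except once the length trend was removed. Of 35 subunits (Psmc3ip left out), 18 were tested, 11 were higher and 1 was lower, with a median log2 fold change of 0.25. The higher share was 61.1%, against 39.3% of all tested genes. Their median length of 1802 nucleotides lay in the shortest length class. In that class 59.9% of all genes were higher and the median log2 fold change was 0.43, so the subunits lay near its share. With library size alone 16 subunits were higher and 0 lower, and with the length trend removed 4 were higher and 7 lower. The direction of the family thus depends on that step. Psmd8, a subunit of the cap's lid, had 248, 258, 259, 243 and 253 CPM in tumour L4, R2, R3, R4 and R5, against 167, 169, 177 and 164 CPM in normal L1, L2, R1 and R2. All tumour areas lay above all normal areas and close to each other. The log2 fold change was 0.58 ± 0.05 (SE, adjusted p = 1.44e-06), and 0.28 with the length trend removed (adjusted p = 0.000175). Psma2, a core ring subunit, averaged 95.4 ± 4.28 CPM in tumour and 68.0 ± 1.47 CPM in normal areas (SD, n = 5 and 4) and kept its call both ways, at 0.49 ± 0.05 and 0.37. Psmd3, a lid subunit, did so at 0.45 ± 0.07 and 0.18.

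The other called subunits had smaller or less stable values. Psmd14, the deubiquitinase of the cap, averaged 64.0 ± 1.51 CPM in tumour and 48.4 ± 1.26 CPM in normal areas, a log2 fold change of 0.41 that came to 0.01 with the length trend removed. Psma1 (0.72 ± 0.12) and Psmb1 (0.38 ± 0.04) lost their calls in the same way, at adjusted p = 0.0936 and 0.115. Psmb5, the chymotrypsin-like protease of the core, had 71.8 CPM in tumour L4 and 85.1 to 99.8 CPM in R2 to R5, against 64.5 to 72.7 CPM in normal areas, so the groups overlapped through L4. Its log2 fold change of 0.36 turned to -0.20 with the length trend removed. Psmb7, the trypsin-like protease, stood at 84.0 to 100.1 CPM in tumour and 71.1 to 88.4 CPM in normal areas. Its fold change of 0.23 turned to -0.26, and its call was lost when tumour R3, normal L1 or normal L2 was left out. Psmc1, an ATPase, turned to -0.11 as well. Psma4 was the single lower subunit, at -0.14. Library size alone gave 0.15, and removing the length trend gave -0.62 (adjusted p = 2.26e-06). Psmb5, Psmc1 and Psma4 share stretches of 796, 1306 and 783 nucleotides with annotated copies. Their longest coding transcripts have 899, 1591 and 1165 nucleotides, so their reads may be split.

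Psmb10 was the exception in size. This subunit replaces Psmb7 in the immunoproteasome, the form that interferon induces and that favours peptides for antigen presentation. Its level was 36.4, 19.1, 21.9, 19.7 and 30.8 CPM in tumour L4, R2, R3, R4 and R5, against 5.62, 5.59, 5.64 and 4.25 CPM in normal L1, L2, R1 and R2. Every tumour area lay above every normal area, with L4 and R5 highest. The log2 fold change was 2.27 ± 0.23 (adjusted p = 9.07e-06), 1.83 with the length trend removed and 1.94 without L4 and R5. The log2 ratio of Psmb10 to Psmb7 averaged -1.88 ± 0.51 in tumour and -3.83 ± 0.31 in normal areas (SD, n = 5 and 4). It differed by 1.95, at the smallest p that 126 splits allow (exact permutation test, 2-sided p = 0.00794). Psmb10 by itself already parted the groups and Psmb7 moved by 0.23, so this p adds no separate support. The ratio is a description, and the areas of a group may come from 1 animal. The other immunoproteasome pairs could not be set against each other, since Psmb8, Psmb9 and Psmb6 had no count.

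Of 9 listed genes that handle antigen peptides beside the immunoproteasome or control their expression, 8 were in the table, 4 were tested, 3 were higher and 0 lower, with a median log2 fold change of 1.96. Tap1 and Tap2 had no count, B2m and Nlrc5 had too few reads, and Erap1, a trimming peptidase, did not pass (0.06 ± 0.06, adjusted p = 0.379). Tapbp, which helps load peptide onto MHC class I, averaged 645 ± 105 CPM in tumour and 195 ± 3.81 CPM in normal areas (1.73 ± 0.11). The interferon-induced factor Irf1 averaged 156 ± 35.9 CPM in tumour and 34.5 ± 2.65 CPM in normal areas (2.18 ± 0.16). Irf1 was highest in tumour L4 and R5 (211 and 168 CPM), and Tapbp in L4 and R2 (786 and 691 CPM). Summed leukocyte markers rose in the tumour areas and were highest in L4 and R5, as were summed urothelial and fat markers. The part of such cells in these values was not tested.

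Both activators that could be tested fell. Psme4, which caps the core as PA200 and is best known from sperm, had 40.0, 36.4, 44.8, 55.0 and 43.8 CPM in tumour L4, R2, R3, R4 and R5, against 107, 115, 116 and 114 CPM in normal L1, L2, R1 and R2. The groups lay far apart, and the log2 fold change was -1.36 ± 0.10 (adjusted p = 1.17e-06) and -0.98 with the length trend removed. Psme3, the nuclear activator, averaged 329.6 ± 10.6 CPM in tumour and 402 ± 11.4 CPM in normal areas, a log2 fold change of -0.29 that came to 0.0027 with library size alone.

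Genes of proteasome assembly, shuttling and regulation were split, with 3 higher and 3 lower of 10 tested (25 listed, 14 in the table). Psmg2, an assembly chaperone, rose by 0.83 ± 0.10 and Sem1, a small lid subunit, by 0.52 ± 0.09 on the log2 scale, and they came to 0.38 and 0.11 with the length trend removed. Ubqln1, a shuttle that brings tagged proteins to the proteasome, averaged 534 ± 67.1 CPM in tumour and 960.3 ± 14.0 CPM in normal areas (-0.84 ± 0.09). Ubqln4 was lower at -0.37 ± 0.05, and at -0.08 with library size alone.

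Of 32 genes with the prefix Ube2, 21 were tested, 7 were higher and 9 were lower, with a median log2 fold change of -0.09. The higher share was 33.3% and the lower share 42.9%, against 39.3% and 35.3% of all tested genes. With library size alone 10 were higher and 2 lower, and with the length trend removed 4 were higher and 11 lower. The most changed of the family was Ube2c, the E2 that starts ubiquitin chains for the anaphase-promoting complex as cells leave mitosis. It had 14.4, 16.8, 10.7, 12.0 and 10.5 CPM in tumour L4, R2, R3, R4 and R5, against 0.865, 1.499, 1.16 and 1.62 CPM in normal L1, L2, R1 and R2. The lowest tumour area lay several times above the highest normal area, a 9.77-fold difference in the fit. The log2 fold change was 3.29 ± 0.23 (adjusted p = 7.75e-07), and 3.04 with the length trend removed. Its exons overlap the antisense gene Tnnc2 over 22.8% of their length, and that gene had 1 read in all libraries.

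The stretch before the start of Ube2c is shown because genes of late mitosis often carry a CHR element (TTTGAA) there. It covers chr2:164769829-164769928 of GRCm38.p6 (RefSeq), plus strand, the 100 bases before the annotated start. Capitals mark the element, on the opposite strand and beginning 29 bases before the start.
Ube2c: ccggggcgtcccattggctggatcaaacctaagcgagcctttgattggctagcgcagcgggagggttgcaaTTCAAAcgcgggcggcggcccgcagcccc
A match is a description of letters and not of binding. In windows of 250 bases before to 50 after the start, searched on both strands, TTTGAA was found in 5 of 24 windows of higher members and in 1 of 35 of lower members. It stood in 9.20% of the 87 windows of tested members and in 17.9% of all 32851 windows in the reference table. That table also holds genes not tested here, so the sets are unlike.

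The anaphase-promoting complex, the ligase that works with Ube2c, had 5 higher and 2 lower of 11 tested genes (16 listed). Its activator Fzr1 rose by 1.14 ± 0.15 and its subunit Anapc5 by 0.95 ± 0.05 on the log2 scale, while Cdc27 (-0.47 ± 0.04) and Anapc1 (-0.15 ± 0.05) were lower. Anapc1 turned to 0.14 with library size alone and to 0.44 with the length trend removed, and Cdc27 came to -0.18 and -0.22. Ccnf, a cyclin-like F-box protein of the cell cycle that the symbol rule does not take, averaged 10.02 ± 1.95 CPM in tumour and 0.640 ± 0.318 CPM in normal areas (3.98 ± 0.29). Mki67, the proliferation marker, rose by 3.99 ± 0.22. The level of Ube2c and the summed markers of dividing cells were both highest in tumour R2 and next highest in L4, and the part of dividing cells was not tested.

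Ube2l6 and Usp18 act on ISG15, a ubiquitin-like protein that interferon induces: Ube2l6 carries it to substrates and Usp18 removes it. Ube2l6 had 25.0, 13.9, 12.5, 11.2 and 18.2 CPM in tumour L4, R2, R3, R4 and R5, against 5.84, 4.22, 3.32 and 2.83 CPM in normal L1, L2, R1 and R2. Usp18 had 12.4, 7.37, 8.34, 7.69 and 11.4 CPM in the same tumour areas, against 4.76, 5.18, 4.98 and 2.22 CPM in the normal areas. For both genes the groups did not overlap and L4 and R5 were the highest areas, as for Psmb10. The log2 fold changes were 2.004 ± 0.29 (adjusted p = 0.000122) for Ube2l6 and 1.12 ± 0.26 (adjusted p = 0.00252) for Usp18. They came to 1.65 and 0.85 without L4 and R5, and to 1.61 and 0.78 with the length trend removed. Herc6, the mouse ligase for ISG15, rose by 0.79 ± 0.11, and Uba7, its E1, had 3 reads in all. Ube2l6 shares a stretch of 508 nucleotides with the predicted gene Gm17167, so its reads may be split.

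**Figure D3:**
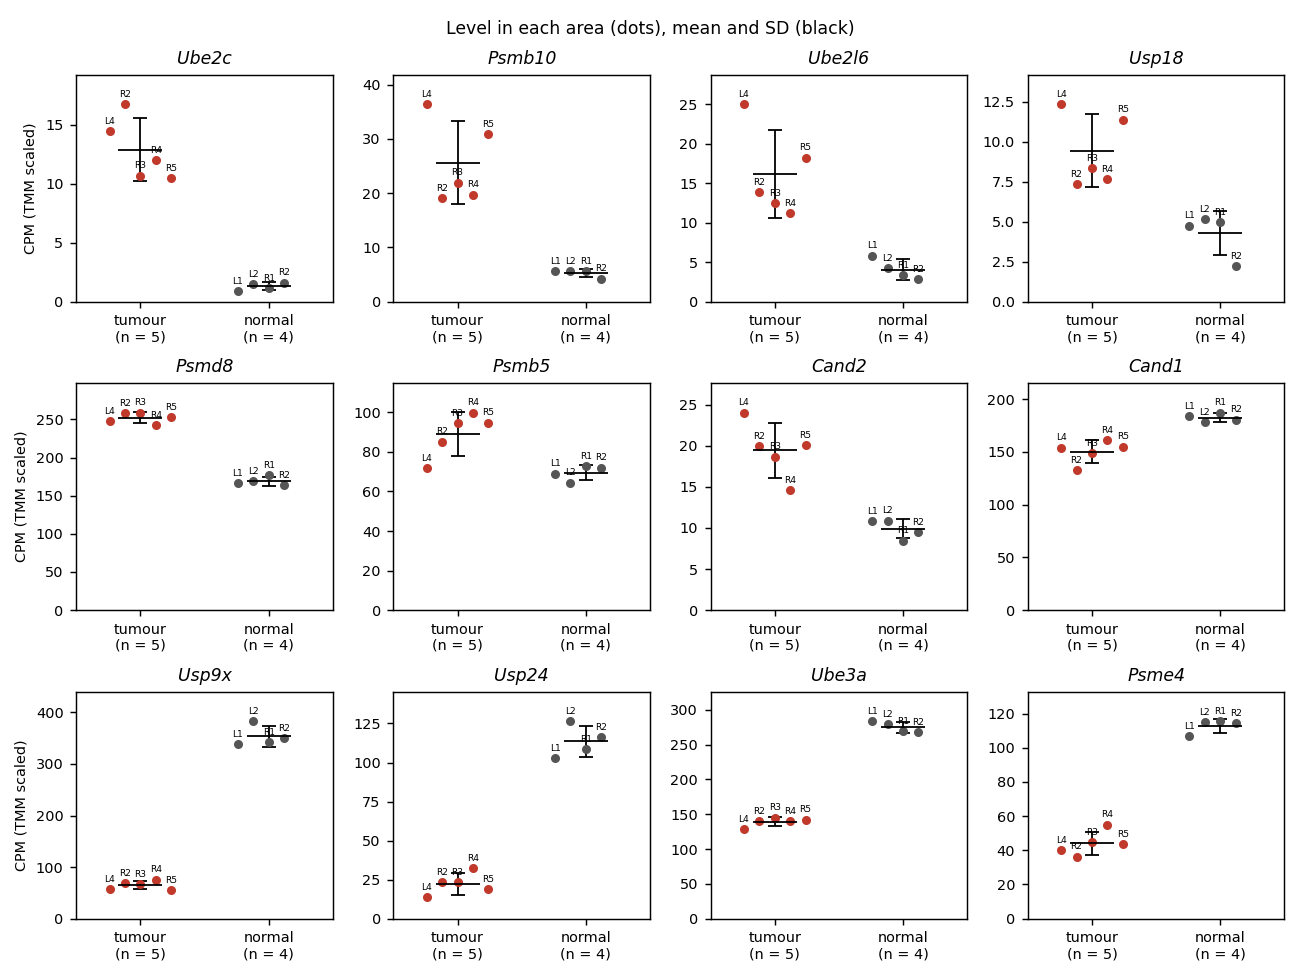
CPM in each area for 12 members, tumour areas on the left (n = 5) and normal areas on the right (n = 4), with the mean and SD in black. Psmb10, Ube2l6 and Usp18 are highest in tumour L4 and R5, Ube2c in R2 and L4, and Usp9x in tumour stays at 55.8 to 75.7 CPM against 339 to 383 CPM in normal areas.

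Other E2 enzymes moved less. Ube2j1, which serves degradation at the endoplasmic reticulum, had 473, 391, 297, 351 and 390.4 CPM in tumour L4, R2, R3, R4 and R5, against 234 to 242 CPM in normal areas. All tumour areas were above the normal ones, with a log2 fold change of 0.68 ± 0.11 (adjusted p = 0.000283). Summed leukocyte markers were 3330, 1981, 1669, 1424 and 2396 CPM in the same tumour areas. Among them Mzb1, a gene of antibody-secreting cells named here after its values were seen, had 749.6, 512, 276, 363 and 538 CPM, against 2.02 to 3.82 CPM in normal areas. L4 was highest for Ube2j1 and both of these, and R3 was lowest for Ube2j1 and Mzb1, and the part of such cells was not tested. Ube2g2, of the same pathway, went the other way, at 128 ± 13.1 CPM in tumour and 166 ± 4.04 CPM in normal areas, and its call of -0.37 was lost with library size alone (-0.07). Ube2r2, which extends chains on cullin ligases, averaged 433 ± 18.4 CPM in tumour and 289 ± 9.85 CPM in normal areas (0.59 ± 0.05, and 0.58 with the length trend removed). Ube2n and Ube2v2 form a pair that builds chains for signalling in place of degradation, and both fell. Ube2v2 averaged 31.3 ± 3.52 CPM in tumour and 49.8 ± 2.80 CPM in normal areas (-0.67 ± 0.09). Ube2n averaged 138 ± 7.24 CPM in tumour and 169 ± 3.83 CPM in normal areas (-0.30 ± 0.05), but stood at -0.01 with library size alone. Both share long stretches with annotated copies. Ube2w, which tags the first residue of proteins, fell by 0.41 on the log2 scale and lost its call with library size alone.

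At the top of the cascade, 4 of 6 tested genes for ubiquitin and E1 enzymes were higher and 1 was lower (13 listed, 8 in the table). Uba1, the main E1, averaged 217 ± 4.40 CPM in tumour and 148 ± 8.61 CPM in normal areas (0.55 ± 0.05). Sae1, part of the SUMO E1, averaged 239.8 ± 3.56 CPM in tumour and 111 ± 8.93 CPM in normal areas (1.11 ± 0.06). Atg7, the E1-like enzyme of autophagy, was lower at -0.47 ± 0.14, and at -0.17 with library size alone.

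Both Ube3 ligases in the table fell. Ube3a, the ligase lost in Angelman syndrome, had 129, 140.1, 145, 141 and 142 CPM in tumour L4, R2, R3, R4 and R5, against 284, 279.7, 269 and 268 CPM in normal L1, L2, R1 and R2. The values were tight within each group and far apart between them, and the log2 fold change was -0.98 ± 0.05 (adjusted p = 9.22e-08). It came to -0.33 with the length trend removed, still a call. Ube3a shares 1804 nucleotides with Snhg14, its antisense transcript, and the library kit does not mark strand. Ube3c, which works at the proteasome, averaged 125 ± 9.25 CPM in tumour and 198 ± 3.74 CPM in normal areas (-0.66 ± 0.06).

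The cullin scaffolds that could be tested were lower. Cul3, which holds BTB-type receptors, averaged 72.8 ± 6.99 CPM in tumour and 94.5 ± 4.08 CPM in normal areas (-0.38 ± 0.07, adjusted p = 0.000941). Cul4b averaged 13.3 ± 2.31 CPM in tumour and 19.3 ± 1.82 CPM in normal areas (-0.53 ± 0.14). Both lost their calls with library size alone, at -0.09 and -0.25. Cul5, which holds SOCS-box receptors, averaged 87.9 ± 10.4 CPM in tumour and 124 ± 8.59 CPM in normal areas (-0.50 ± 0.09), and lost its call with the length trend removed (adjusted p = 0.0801). Ube2f, the E2 that charges NEDD8 onto Cul5, was lower too, at 29.5 ± 2.14 CPM in tumour and 42.0 ± 3.27 CPM in normal areas (-0.51 ± 0.08).

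The exchange factors Cand1 and Cand2, which strip receptors off cullins, had opposite signs. Cand2 had 24.03, 19.9, 18.7, 14.7 and 20.1 CPM in tumour L4, R2, R3, R4 and R5, against 10.8, 10.9, 8.46 and 9.51 CPM in normal L1, L2, R1 and R2. The groups did not overlap, and the log2 fold change was 0.97 ± 0.15 (adjusted p = 0.000203), 1.23 with the length trend removed and 1.27 with library size alone. Cand1 averaged 150.4 ± 10.997 CPM in tumour and 182 ± 3.97 CPM in normal areas. Its fall of -0.28 ± 0.06 turned to 0.01 with library size alone and to 0.22 with the length trend removed, so its direction is not settled.

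NEDD8, the ubiquitin-like protein that switches cullins on, and the COP9 signalosome, which removes it, had 4 higher and 2 lower of 9 tested genes (20 listed, 16 in the table). Cops5, the protease of the signalosome, averaged 5.54 ± 1.38 CPM in tumour and 1.56 ± 0.321 CPM in normal areas (1.83 ± 0.27). Dcun1d5, a co-factor for attaching NEDD8, was higher at 0.43 ± 0.08 (0.22 with the length trend removed), and its relative Dcun1d1 was lower at -0.70 ± 0.07. Rbx1, the RING subunit shared by most cullins, was lower at -0.29 ± 0.05 and came to 0.00 with library size alone.

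Receptors and adaptors of cullins outside the symbol rule had 12 lower and 4 higher of 23 tested (42 listed, 30 in the table). Among all tested genes 35.3% were lower and 39.3% higher. With library size alone, the lower Skp1a, Spop and Dcaf12 turned to 0.04, 0.13 and 0.11, and the rest of the lower genes stayed below 0. Klhl3, the Cul3 receptor that targets WNK kinases in the distal tubule, averaged 7.52 ± 2.95 CPM in tumour and 106 ± 13.1 CPM in normal areas (-3.81 ± 0.23). Summed distal nephron markers fell in the same areas, and their part in it was not tested. Klhl7 was lower at -1.46 ± 0.26 and Elob, which joins Vhl to Cul2, was higher at 0.53 ± 0.05, but at -0.16 with the length trend removed. Vhl, one of the genes with a floxed allele, had 45.1 to 75.6 CPM in tumour and 97.6 to 108 CPM in normal areas (-0.79 ± 0.13). Counts per gene do not show which exons the reads came from.

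F-box receptors were few in the tested set, with 20 of 59 tested, 6 higher and 8 lower. These are 30.0% and 40.0%, against 39.3% and 35.3% of all tested genes. In the Fbxo family, Fbxo4, a receptor for cyclin D1, averaged 26.3 ± 1.13 CPM in tumour and 13.4 ± 1.54 CPM in normal areas (0.97 ± 0.10, adjusted p = 8.38e-06). Fbxo10, a receptor for the survival protein Bcl2, averaged 28.2 ± 5.46 CPM in tumour and 69.7 ± 5.35 CPM in normal areas (-1.31 ± 0.13). Fbxo32, the muscle atrophy gene known as atrogin-1, had 66.2 CPM in tumour L4 and 29.7 to 41.6 CPM in R2 to R5, against 22.2 to 26.7 CPM in normal areas. Its log2 fold change of 0.76 ± 0.22 (adjusted p = 0.00988) fell to 0.45 without L4 and R5, with adjusted p = 0.0058. Like Fbxo32, the sum of 7 muscle markers was highest in tumour L4, at 2.78 CPM. It lay between 0.503 and 1.09 CPM in R2 to R5, and between 0.809 and 2.49 CPM in the normal group. These markers had too few reads to be tested, with Myh4 at 0 in every library, so the part of muscle was not tested. Fbxo45, which works with a RING ligase in place of a cullin, was lower at -0.61 ± 0.06, Fbxo21 at -0.39 ± 0.09 and Fbxo28 at -0.31 ± 0.06. The last pair lost their calls with library size alone. Fbxo38 was higher at 0.33 ± 0.08.

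In the Fbxl family, Fbxl17, which checks the pairing of BTB proteins, averaged 1.70 ± 0.271 CPM in tumour and 5.02 ± 0.871 CPM in normal areas (-1.55 ± 0.19). Fbxl6 averaged 38.7 ± 1.54 CPM in tumour and 25.3 ± 2.34 CPM in normal areas (0.61 ± 0.08). Fbxl18 (-0.47 ± 0.06) and Fbxl20 (-0.34 ± 0.05) turned to 0.04 and 0.22 with the length trend removed. Of the Fbxw family, 3 of 16 were tested, and Fbxw5 was higher at 0.32 ± 0.06, with no call once the length trend was removed (adjusted p = 0.143).

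The Kctd proteins, several of which hand substrates to Cul3, had 4 higher and 1 lower of 6 tested. The higher share was 66.7%, against 39.3% of all tested genes. It was 47.6% in the length class that holds the family's median length of 2610 nucleotides. With library size alone 5 were higher, and with the length trend removed 3. Kctd10, a receptor for RhoB, had 208, 157, 138, 121 and 148 CPM in tumour L4, R2, R3, R4 and R5, against 77.4, 75.8, 73.5 and 75.6 CPM in normal L1, L2, R1 and R2. The groups lay apart with L4 highest, and the log2 fold change was 1.03 ± 0.14 (adjusted p = 5.43e-05). Its exons overlap the antisense gene Myo1h over 37.9% of their length, and that gene had 2 reads in all. Kctd13, its relative that targets RhoA, averaged 38.8 ± 2.99 CPM in tumour and 25.3 ± 1.90 CPM in normal areas (0.62 ± 0.09), and Kctd20 122 ± 7.83 CPM in tumour and 82.3 ± 0.922 CPM in normal areas (0.57 ± 0.06). Kctd5 rose by 0.30 ± 0.07 and lost its call with the length trend removed. Kctd1, a partner of AP-2 factors, was lower at 60.7 ± 14.9 CPM in tumour and 112 ± 6.20 CPM in normal areas (-0.88 ± 0.17), with tumour R2 at 34.5 CPM and the other tumour areas at 64.1 to 72.4 CPM. R2 was also the tumour area with the lowest summed distal nephron markers, and their part was not tested.

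The Usp family, cysteine proteases that take ubiquitin off, held the largest falls. Of 39, 24 were tested, 2 were higher and 10 lower, and 6 of the lower were at least 2-fold lower. The lower share was 41.7%, against 35.3% of all tested genes. It was 43.7% in the length class that holds the family's median length of 5119.5 nucleotides. The higher share was 8.33%, against 39.3% of all tested genes and 32.6% in that class. Over all tested genes, 12.6% were called and at least 2-fold lower. With library size alone 9 Usp genes were higher and 6 lower, and with the length trend removed 8 were higher and 7 lower. Usp9x, a long X-linked gene whose protein stabilises the survival factor Mcl1, had 57.6, 68.9, 66.6, 75.7 and 55.8 CPM in tumour L4, R2, R3, R4 and R5, against 339, 383, 343 and 350.1 CPM in normal L1, L2, R1 and R2. The tumour areas lay far under the normal ones, with a log2 fold change of -2.45 ± 0.09 (adjusted p = 2.41e-08), a 5.45-fold lower level, and -1.68 with the length trend removed. Usp24, a related deubiquitinase, had 13.6, 23.5, 23.6, 32.5 and 18.8 CPM in tumour areas, against 103 to 126 CPM in normal areas (-2.34 ± 0.20, and -1.65 with the length trend removed). It varied most among tumour areas of all called members, with R4 2.39 times L4.

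Usp31 was the most even of these, with 52.1, 47.8, 46.4, 49.2 and 49.8 CPM in tumour L4, R2, R3, R4 and R5, against 178, 176, 164 and 174 CPM in normal L1, L2, R1 and R2. Its log2 fold change was -1.82 ± 0.05 (adjusted p = 8.03e-09), and -1.14 with the length trend removed. Usp20 and Usp33, related enzymes known as deubiquitinases that bind the Vhl protein, both fell. Usp33 averaged 7.20 ± 1.04 CPM in tumour and 23.3 ± 1.42 CPM in normal areas (-1.69 ± 0.12). Usp20 averaged 8.75 ± 1.08 CPM in tumour and 22.1 ± 2.70 CPM in normal areas (-1.33 ± 0.13). Usp53, a tight junction protein, averaged 16.1 ± 1.61 CPM in tumour and 49.4 ± 1.86 CPM in normal areas (-1.61 ± 0.09). These falls kept their calls with the length trend removed and with library size alone. Usp14, a deubiquitinase bound to the proteasome, was low throughout, at 1.87 ± 0.528 CPM in tumour and 3.63 ± 1.49 CPM in normal areas. Its fall of -0.94 ± 0.31 (adjusted p = 0.0183) lost its call without normal L1 and also with library size alone. Of its exon length, 26.0% overlaps the antisense gene Thoc1, at 37.8 CPM in tumour and 32.6 CPM in normal areas.

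The stretch before Usp31 holds an E-box (CACGTG), marked in capitals and shown as the counterpart to Ube2c among the members that fell. It covers chr7:121707443-121707542 of GRCm38.p6 (RefSeq), minus strand, the 100 bases before the annotated start, with the element beginning 22 bases before it.
Usp31: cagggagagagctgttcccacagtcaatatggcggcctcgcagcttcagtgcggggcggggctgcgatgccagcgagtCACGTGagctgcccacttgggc
CACGTG was in 4 of 24 windows of higher members, 6 of 35 of lower members and 4 of 28 of those not called. That is 16.1% of the members' windows against 7.15% of all windows. The members' windows are of tested genes, while all windows include genes not tested here, and no share over tested genes was taken. The interferon-stimulated response element was in 2.299% of the members' windows against 3.44% of all. The gamma-activated site (TTCNNNGAA) was in 4.60% against 8.30%, and the antioxidant response element (TGANNNNGC) was in 42.5% against 41.3%. Windows matched 74 of the 99 tested members, and Usp9x, Usp18, Usp33 and Usp53 had none.

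Other deubiquitinases were split, with 4 higher and 4 lower of 11 tested (27 listed, 23 in the table). Uchl3 rose by 0.73 ± 0.11 and Zranb1 by 0.57 ± 0.06 on the log2 scale, while Otud3 (-1.82 ± 0.13) and Mindy2 (-0.87 ± 0.08) were lower. Uchl3 came to 0.18 and Mindy2 to -0.35 with the length trend removed. HECT and RING ligases outside cullin complexes had 14 lower and 8 higher of 26 tested (53 listed, 40 in the table). Among all tested genes 35.3% were lower and 39.3% higher. Cbl, the ligase that turns off growth factor receptors, averaged 12.0 ± 1.86 CPM in tumour and 90.8 ± 6.19 CPM in normal areas (-2.93 ± 0.11), and Herc2 was lower at -1.53 ± 0.08, or -0.63 with the length trend removed. Birc2, an inhibitor of apoptosis with a RING domain, rose by 0.78 ± 0.16.

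**Figure D4:**
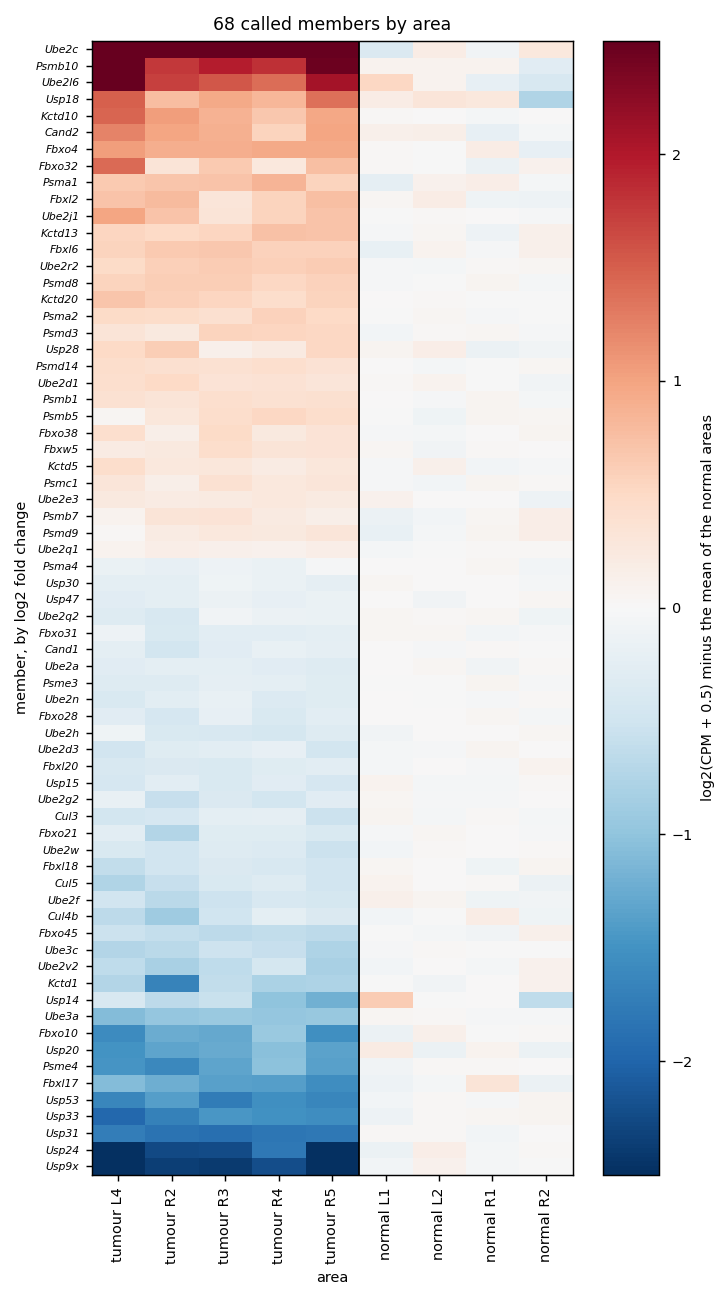
Log2(CPM + 0.5) of the 68 called members in each area, minus the mean of the 4 normal areas, tumour areas on the left, with colours saturating at 2.5. Normal areas differ little from each other, tumour L4 is the highest tumour area for 11 of the 31 higher members, and L4 or R2 is the lowest for 13 each of the 37 lower members.

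The spread between areas was wider in the tumour group in the median over members. The highest tumour area was 1.24 times the lowest in the median over the 99 tested members, and the highest normal area was 1.13 times the lowest, with 5 areas in the tumour group and 4 in the normal group. Among the called members, the spread across tumour areas was widest for Usp24, Ube2l6 (2.24 times), Fbxo32 (2.23 times), Kctd1 (2.10 times) and Usp14 (2.06 times). Of these, the risen Ube2l6 and Fbxo32 and the fallen Usp14 were highest in L4, the area with the highest summed leukocyte, urothelial and fat markers. Without L4 and R5, 33 members were higher and 37 lower.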

How the data were processed

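Per the labels' protocols, RNA was poly(A)-selected, made into TruSeq libraries and read as paired ends on a HiSeq 2500. STAR 2.3, HTSeq, edgeR and the build mm9 are credited to the submitters' processing notes. Annotation and strand setting: not given in the sources used here, although the kit is not strand-specific. The deposited values are raw read counts per gene, made by the authors, 1 column per library, with 0 columns left unmapped. GENCODE M21 and RefSeq tables on GRCm38 served only for symbols, transcript lengths and promoter letters.

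Genes were kept by filterByExpr (minimum count 10, minimum total 15), scaled by TMM (factors 1.04 to 1.17 for tumour libraries, 0.89 to 0.90 for normal libraries) and tested with edgeR 4.0.16 in R 4.3.3 by the quasi-likelihood test with the group as only term. Adjusted p under 0.05 was a call. Standard errors are the log2 fold change divided by the square root of F. The ratio of subunits used log2 CPM with a prior count of 2. Fits were tested on simulated data. Alternatives were RLE factors, library size, 2 other filters, DESeq2 1.42.0, limma-voom 3.58.1, the area letter as a covariate, each area left out, and L4 and R5 left out, with a length correction added later. Copies (at least 200 nucleotides at 95% identity, in 16 tested members) were found with BLAST 2.17.0.

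Members, gene lists and tests were chosen with earlier results of these data known. Named genes are a fixed set, the 4 called members per family and direction with the largest changes (mean of at least 5 CPM, no overlap), and up to 2 called genes per list and direction. Others are named to account for members.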

Additional observations from a re-analysis of the deposited data

Results flagged for a closer look

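In 7 of 100 groups of areas examined for the named members, 1 area stood apart from the rest by Dixon's criterion, where chance alone sets about 1 in 20 groups apart. Kctd1 stood at 34.5 CPM in tumour R2, against 64.1 to 72.4 CPM in the other tumour areas. Ube2r2 stood at 402 CPM in tumour L4, against 435 to 447 CPM in the others. Psmb10 was 4.25 CPM in normal R2, against 5.59 to 5.64 CPM in the other normal areas, and Usp18 was 2.22 CPM in the same area, against 4.76 to 5.18 CPM. Psme3 was 419 CPM in normal R1, against 395 to 399 CPM. Psme4 was 107 CPM in normal L1, against 114 to 116 CPM, and Ube2w was 160.0 CPM in normal L1, against 170.1 to 172 CPM.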

How the results depend on the processing

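Of 50 named members that were tested, all kept direction and call under RLE factors, both other filters, DESeq2, limma-voom, the area letter and the fit without tumour L4 and R5. Leaving out 1 area ended calls of Psmb7 (3 fits) and Usp14 (1 fit). With library size alone 40 kept their call, 8 lost it, and Cand1 (0.013) and Psme3 (0.0027) changed sign. That scaling gave 49 members higher and 17 lower. By family it gave 9 cap subunits higher, 0 core subunits lower, 1 cullin or Cand lower, 2 Fbxo lower, 2 Fbxw higher, 1 Psme lower, 2 Ube2 lower, and 9 Usp higher and 6 lower. With the length trend removed 37 kept their call, 7 lost it and 6 changed sign: Cand1 (0.22), Fbxl18 (0.036), Fbxl20 (0.22), Psmb5 (-0.20), Psmb7 (-0.26) and Psmc1 (-0.11). That step gave 2 cap subunits higher and 4 lower, 2 core subunits higher and 3 lower, 2 cullin or Cand higher and 2 lower, 1 Fbxl lower, 4 Ube2 higher and 8 Usp higher. RLE factors gave 1 cap and 2 core subunits lower, no filter gave 0 core subunits and 1 Fbxw lower, and the fit without L4 and R5 gave 2 Fbxw higher. With 1 area left out, cap subunits lower ranged from 0 to 1, core subunits lower from 0 to 1 and Fbxw higher from 1 to 2. The cause was not tested. No paired analysis was possible because the groups share only the area label R2. The 42 members with few reads were too shallow to test, and why 53 had no count was not tested.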
